A study of Mus musculus with 4 samples.

Results

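The mitochondrial and antioxidant genes of the segment duplicated in the Dp16 mouse are Atp5j, Atp5o, Mrps6, Mrpl39 and Sod1. They were chosen by name for function and position on chromosome 16, with earlier results of these data known, by a rule that uses no measured value, and are 5 of the 19090 genes counted. All 5 had a mean of at least 5 CPM (UMIs, the unique molecular identifiers that count captured transcripts, per 1000000 of the section), a level that 11033 genes reached. Transcripts were counted by Visium spatial transcriptomics, in which each spot on the slide collects RNA from a small area of tissue that can hold several cells or parts of cells. The tissue was the brain hemisphere of male mice 9 months old, cut at 10 µm between +1 and -2 mm from bregma, with 1 section from 1 mouse for each of 4 genotypes: Wild-type (C57BL/6J), 5xFAD, Dp16 and 5xFAD-Dp16. The Dp16 mouse has an extra copy of the stretch of chromosome 16 that corresponds to much of the long arm of the human Down syndrome chromosome. 5xFAD mice carry transgenes for human APP and presenilin with familial Alzheimer's disease mutations, driven in neurons by Thy1 regulatory elements, and form amyloid plaques. 5xFAD-Dp16 mice carry both. No treatment was given to any group in the labels.

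With 1 section per genotype there was no replicate and no test. Each value is that of 1 section, and the 95% intervals given cover counting error alone, not the spread between mice or sections. A ratio was called when one level exceeded the other by at least 25%, a log2 ratio of 0.32 in either direction, and the share of all 11033 genes past the same fold is given beside the members' count. In spots, fewer cells of a type and less RNA per cell cannot be told apart.

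ATP synthase makes ATP from the proton gradient across the inner mitochondrial membrane. Its catalytic head is held still by a peripheral stalk, to which Atp5j (coupling factor 6) and Atp5o (the oligomycin sensitivity conferring protein, OSCP) belong. Mitochondria have their own ribosomes, which make the membrane subunits that mitochondrial DNA encodes. Mrps6 is a protein of the small subunit of this ribosome and Mrpl39 of the large one. Sod1 is the copper and zinc superoxide dismutase, which turns superoxide into hydrogen peroxide in the cytosol and the space between the mitochondrial membranes. Neurons depend heavily on both systems, and SOD1 is the textbook example of a gene with an extra copy in Down syndrome.

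The members lay in 3 places on chromosome 16 (RefSeq, GRCm38.p6). Mrpl39 (84718281 to 84735244) and Atp5j (84827871 to 84835857) were close to each other, with Jam2 between them. Sod1 stood alone at 90220762 to 90226333. Atp5o (91925223 to 91931630) and Mrps6 (92058336 to 92112227) formed the other pair. The sequences before their starts are shown so that motif matches can be compared between genes of related roles that were all higher with the duplication. Each window is the 250 bases before the RefSeq transcript start on the gene's own strand, with capitals marking matches to motifs searched on both strands.
Mrpl39, chr16:84735245-84735494, minus strand: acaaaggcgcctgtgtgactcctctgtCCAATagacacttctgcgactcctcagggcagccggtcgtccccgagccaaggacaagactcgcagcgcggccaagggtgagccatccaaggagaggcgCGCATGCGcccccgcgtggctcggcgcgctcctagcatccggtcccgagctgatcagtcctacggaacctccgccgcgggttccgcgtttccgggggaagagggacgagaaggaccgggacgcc
Sod1, chr16:90220512-90220761, plus strand: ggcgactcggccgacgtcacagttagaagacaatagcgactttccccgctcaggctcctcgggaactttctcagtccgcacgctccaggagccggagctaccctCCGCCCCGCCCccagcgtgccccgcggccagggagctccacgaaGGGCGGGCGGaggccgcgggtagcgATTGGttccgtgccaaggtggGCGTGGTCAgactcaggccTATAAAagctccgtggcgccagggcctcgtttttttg
Atp5o, chr16:91931631-91931880, minus strand: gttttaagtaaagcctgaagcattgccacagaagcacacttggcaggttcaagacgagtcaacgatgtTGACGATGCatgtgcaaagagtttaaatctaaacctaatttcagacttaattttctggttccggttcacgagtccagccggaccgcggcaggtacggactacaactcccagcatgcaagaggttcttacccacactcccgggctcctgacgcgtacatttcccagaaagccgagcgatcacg
Mrps6, chr16:92058086-92058335, plus strand: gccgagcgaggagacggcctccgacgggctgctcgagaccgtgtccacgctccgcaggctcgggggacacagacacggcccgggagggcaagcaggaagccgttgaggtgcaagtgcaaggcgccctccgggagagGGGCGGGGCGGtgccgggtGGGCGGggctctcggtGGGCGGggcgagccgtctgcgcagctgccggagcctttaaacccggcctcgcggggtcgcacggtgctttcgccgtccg
Atp5j has its RefSeq start 148 bases from that of Gabpa, on the other strand, so 25-base pieces around its matches stand in for the window. The last bases of the Mrps6 window lie in Slc5a3, which starts just before Mrps6.
Atp5j, NRF1 core, chr16:84835108-84835132, minus strand: gccagaataCGCATGCGtacagtgc
Atp5j, YY1 site, chr16:84835048-84835072, minus strand: gtgtaggaAAGATGGCGgagtctta
Atp5j, GABPA (ETS) site, chr16:84835022-84835046, minus strand: ctgagggacCCGGAAGcacttaccc

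The 7 motifs searched were the NRF1 core GCATGCG, the GABPA site CCGGAAG, the YY1 site AAGATGGCG, the GC box GGGCGG, the NF-Y box CCAAT, the antioxidant response element TGACNNNGC and the TATA box TATAAA. The NRF1 core, bound by a factor known for its targets among mitochondrial genes, was found before Atp5j and Mrpl39 and in 3.02% of all 32851 RefSeq windows. Both matches read as the palindrome CGCATGCG, which holds the core on both strands. Atp5j also had the YY1 site, found in 0.606% of windows, and the GABPA site, found in 6.91%. GABPA is encoded by the gene that starts next to Atp5j. Mrps6 had 4 GC boxes, of which 2 overlap by 1 base, and no other match. The GC box was found in 32.7% of windows. Sod1 had 4 GC boxes in overlapping pairs, an NF-Y box (33.8% of windows), a TATA box 37 to 32 bases before the start (12.4%) and a match to the antioxidant response element 56 to 48 bases before it (10.2%). Atp5o had a match to the antioxidant response element, TGACGATGC, and no other. Mrpl39 had an NF-Y box as well. A further RefSeq start of Atp5j had a GC box before it and no other match. GC content was 56% and 74.8% in the 2 Atp5j windows, 74.4% for Mrps6, 67.2% for Mrpl39, 66.4% for Sod1 and 50% for Atp5o, with a median of 52.4% over all windows. No motif was found before all 5 genes. A match describes letters and is not evidence of binding.

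Total UMIs were between 26049860 (5xFAD) and 36461389 (5xFAD-Dp16) per section, over 2347 to 2941 spots with medians of 9404 to 11639 UMIs. The barcodes of the slide recur by design: 2879 of 3164 were used in more than 1 section, and none occurred more than 1 time within a section. The sections also differed in what they held. Summed choroid plexus markers were 7340 CPM in Wild-type and 20239 in 5xFAD, and 33610 in Dp16 and 15347 in 5xFAD-Dp16, and all 7 were called higher in Dp16 than in Wild-type. Blood markers summed to between 497 CPM (Dp16) and 1345 CPM (Wild-type), and oligodendrocyte markers to between 5064 CPM (5xFAD-Dp16) and 6700 CPM (Wild-type). Pituitary markers summed to 68.3 CPM in Wild-type and 9.64 in 5xFAD, and 10.4 in Dp16 and 56.5 in 5xFAD-Dp16. All 8 neuron, 8 astrocyte and 8 oligodendrocyte markers listed had a mean of at least 5 CPM. Neuron markers summed to between 3113 CPM (5xFAD-Dp16) and 4117 CPM (Wild-type). Their part in the results below was not tested, except where a value without the tissue concerned is given.

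All 5 members were higher in the Dp16 section than in Wild-type, and all 5 were higher in 5xFAD-Dp16 than in 5xFAD. The ratio was called for 5 of 5 in the first pair, where 5.15% of all genes were called higher, and for 4 of 5 in the second, where 2.40% were. Sod1 was the exception. The 4 called in both pairs compare with 0.716% of all genes. Of all genes called in either direction, 22.0% were higher in the first pair and 23.8% in the second, and 42.5% and 47.3% with trimmed mean of M-values (TMM) scaling. The members' median log2 ratio was 0.69 and 0.71, against -0.13 and -0.07 over all genes. The pairs share no section. Taken relative to the all-gene median of the first pair, the members' log2 ratios were 0.86 for Atp5j, 0.82 for Atp5o, 1.12 for Mrps6, 0.75 for Mrpl39 and 0.76 for Sod1. As genes of the duplicated segment, they go the way of the section labels.

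Atp5j stood at 887 CPM in Wild-type and 918 in 5xFAD, against 1473 in Dp16 and 1500 in 5xFAD-Dp16, from 23920 to 54677 UMIs. The sections without the duplication and the sections with it were far apart, and within each kind the values were close. The log2 ratio was 0.73 (0.71 to 0.75) for Dp16 over Wild-type and 0.71 (0.69 to 0.73) for 5xFAD-Dp16 over 5xFAD. Its partner in the stalk, Atp5o, stood at 556 and 585 CPM without the duplication, against 895 and 918 CPM with it, in the same order. Its log2 ratios were 0.69 (0.66 to 0.71) and 0.65 (0.62 to 0.68). Both were above 0.58, the log2 ratio of 1.5 that 3 copies over 2 would give if transcripts followed gene copies, and so were all 4 intervals. This depends on scaling to the section total. As a share of the other ATP synthase genes, described below, Atp5o had 0.558 in the first pair, under 0.585. Atp5j had 0.602 (0.581 to 0.623) there, an interval that holds 0.585. In the second pair both shares stayed above it, at 0.68 and 0.62.

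Mrps6 had the highest ratio of the 5 members in the first pair, and in the second it lay close to Mrpl39. Its level was 87.5 CPM in Wild-type and 91.7 in 5xFAD, against 173 in Dp16 and 165 in 5xFAD-Dp16, from 2390 to 6007 UMIs. The log2 ratio was 0.99 (0.92 to 1.05) in the first pair and 0.84 (0.78 to 0.91) in the second. Without the region labelled VL, where Mrps6 and choroid plexus markers were highest though not confined to it, the values were 0.78 and 0.81. With the same mix of regions in every section they were 0.79 and 0.78, the second below that of Mrpl39 (0.79). RefSeq places Slc5a3, a myo-inositol transporter gene, over 29137 bases of Mrps6 on the same stretch, and no source used here gives the counting rule for shared bases. Slc5a3 itself was counted at 371 to 646 UMIs per section with log2 ratios of 0.40 and 0.25, so the 2 counts differed in size and ratio, and how reads were split between them is uncertain. Atp5j likewise overlaps Gabpa by 966 bases, with 269 to 426 UMIs for Gabpa.

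Mrpl39 was counted least, with 988 UMIs in Wild-type and 727 in 5xFAD, and 1360 in Dp16 and 1790 in 5xFAD-Dp16. These are 28.8 and 27.9 CPM against 44.0 and 49.1 CPM. Again both sections with the duplication were above both without it, an order that was not counted over all genes. The log2 ratio was 0.61 (0.50 to 0.73) in the first pair and 0.81 (0.69 to 0.94) in the second, the widest intervals of the 5.

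Sod1 kept this order, with a smaller ratio in the second pair. It stood at 224 CPM in Wild-type and 262 in 5xFAD, against 345 in Dp16 and 314 in 5xFAD-Dp16, from 6829 to 11437 UMIs. The sections with the duplication were the highest, but 5xFAD lay above Wild-type and 5xFAD-Dp16 below Dp16. The log2 ratio was 0.62 (0.58 to 0.67) for Dp16 over Wild-type and 0.26 (0.22 to 0.30) for 5xFAD-Dp16 over 5xFAD. The second value is 1.20-fold, under the size set for a call. With TMM scaling it was 0.321931, at the edge of the call (0.321928).

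**Figure D1:**
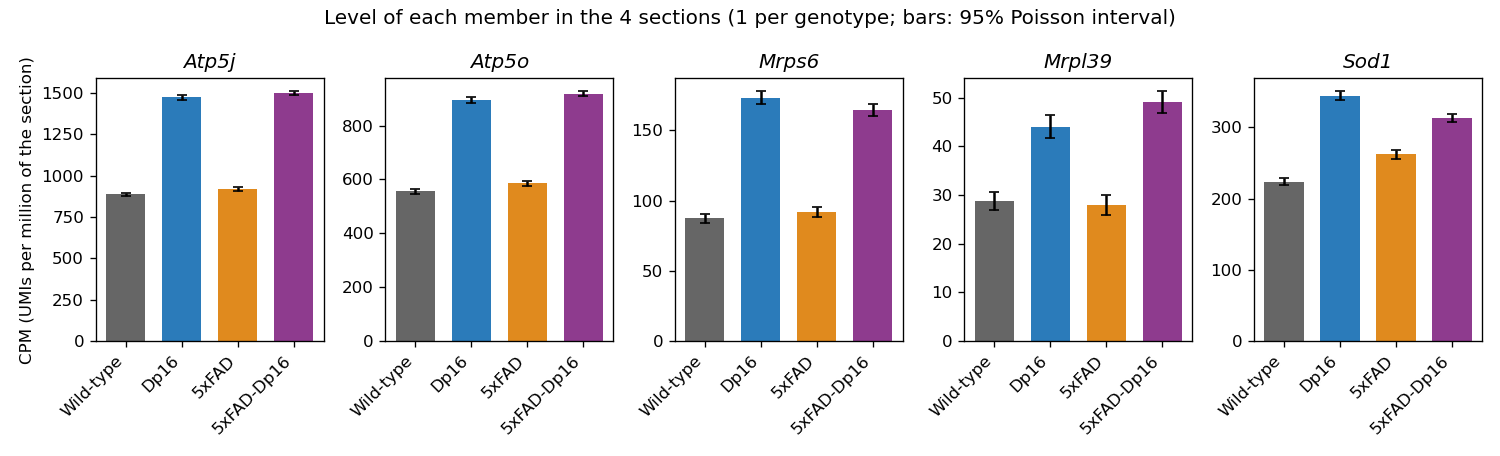
Bars give the level of each member in CPM, 1 section per genotype, with exact 95% Poisson intervals for counting error. Both sections with the duplication stand above both without it for all 5 genes, and for Sod1 the nearest of these are 5xFAD (262 CPM) and 5xFAD-Dp16 (314 CPM). The share of all genes with this order was not counted.

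Among the 70 segment genes of at least 5 CPM, members included, Mrps6 ranked 4 and 3 by ratio in the pairs, Atp5j 11 and 11, Atp5o 12 and 16, Mrpl39 20 and 5, and Sod1 19 and 55. The 65 other segment genes had a median log2 ratio of 0.40 and 0.42, and 41 and 43 of them were called higher, 30 in both pairs. The place of Sod1 in the first pair is thus in the upper part of the segment and in the second in the lower part.

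5xFAD was compared with Wild-type, and 5xFAD-Dp16 with Dp16, to see what the transgenes went with. These comparisons use the same 4 sections as the Dp16 pairs. No member was called in either direction. Over all genes 4.42% were called higher and 10.1% lower in 5xFAD over Wild-type, and 3.25% higher and 5.19% lower in 5xFAD-Dp16 over Dp16. With TMM scaling the first of these splits was 5.55% higher and 6.71% lower. The log2 ratios in these 2 comparisons were 0.05 and 0.03 for Atp5j, 0.07 and 0.04 for Atp5o, 0.07 and -0.07 for Mrps6, and -0.04 and 0.16 for Mrpl39, whose first value was 0.01 with TMM scaling. For Sod1 they were 0.23 (0.18 to 0.28) and -0.14 (-0.17 to -0.10), of opposite sign. Neither direction held for Mrps6. Without VL its values were -0.04 and -0.01, and as means over spots -0.06 and 0.06. The difference between the 2 duplication ratios, second minus first, was -0.02 (-0.05 to 0.01) for Atp5j and -0.04 (-0.08 to 0.00) for Atp5o, and 0.03 and 0.01 without Hypothalamus. It was -0.14 (-0.24 to -0.05) for Mrps6, 0.20 (0.03 to 0.37) for Mrpl39 and -0.36 (-0.43 to -0.30) for Sod1. These intervals hold counting error alone. The difference for Mrps6 was 0.03 without VL, 0.13 as a mean over spots and -0.01 with the same mix of regions in every section, so its sign depends on these choices.

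**Figure D2:**
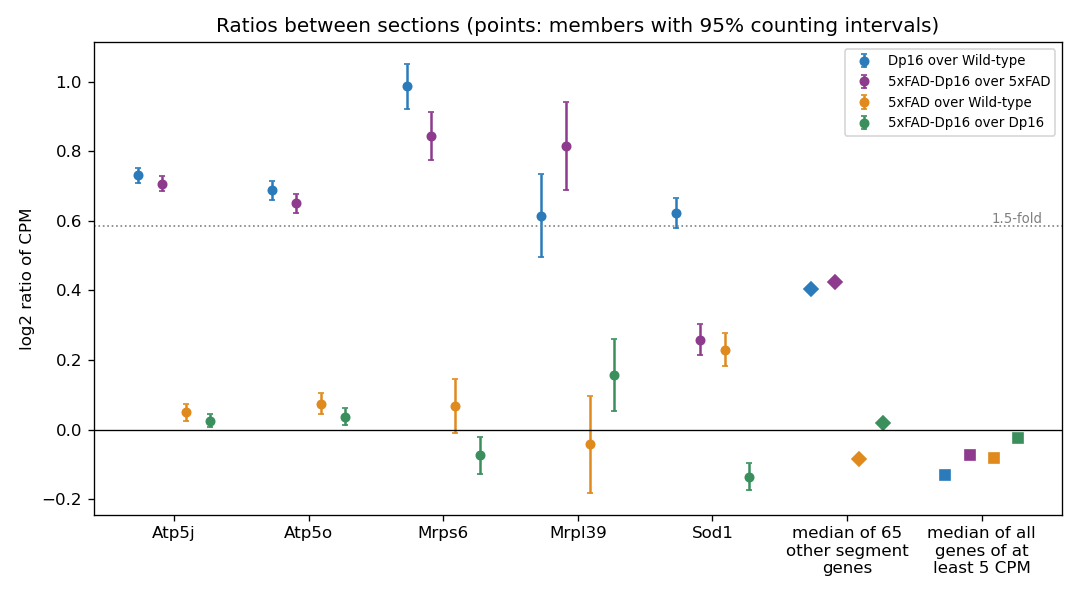
Points give log2 ratios of CPM between sections with 95% counting intervals for the 5 members, and diamonds and squares give medians of the 65 other segment genes and of all 11033 genes. The duplication ratios of 4 members lie above 0.6 in both pairs, and for Sod1 the second (0.26) is near its 5xFAD over Wild-type ratio (0.23).

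Of the members 4 belong to larger assemblies whose other genes lie outside the segment, and Sod1 was set beside other antioxidant genes. Beside the counts that follow, 5.15% of all genes were called higher and 18.2% lower in the first Dp16 pair, and 2.40% and 7.69% in the second. Of 19 other ATP synthase genes, 0 were called higher in either Dp16 pair and 1, the assembly factor Atpaf1, was called lower in the first (log2 -0.34). The list's median log2 ratio was 0.11 and 0.03. The most abundant, Atp5md and Atp5j2, had ratios of 0.24 and 0.16 in the first pair and -0.03 and 0.22 in the second. Of 32 small-subunit and 49 large-subunit genes of the mitochondrial ribosome, none was called in either direction in either pair, with medians of 0.11 and 0.12 for the small subunit and 0.06 and 0.12 for the large. Mrps33, the most abundant small-subunit gene, had ratios of 0.08 and 0.25, and Mrpl20, the most abundant of the large subunit, 0.06 and 0.17. All these medians were above those of all genes (-0.13 and -0.07).

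The products that the mitochondrial ribosome makes, and the respiratory chain they join, were read the same way. None of the 62 nuclear genes of the respiratory chain was called in either pair, with medians of 0.11 and 0.09, where 5.15% of all genes were higher and 18.2% lower in the first pair and 2.40% and 7.69% in the second. Cox8a and Cox6c, subunits of cytochrome c oxidase and the most abundant of the list, had ratios of 0.10 and 0.19 in the first pair and 0.31 and 0.07 in the second. None of the 13 genes of mitochondrial DNA was called, with medians of 0.09 and 0.04. The most abundant, mt-Co3 and mt-Atp6, had ratios of 0.05 and 0.02 in the first pair and 0.15 and 0.01 in the second.

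Of 41 antioxidant genes, 5 were called higher and 3 lower in the first pair (5.15% and 18.2% of all genes), 4 higher and 1 lower in the second (2.40% and 7.69%), and 0 higher in both (0.716%). Sod2, the manganese superoxide dismutase of the mitochondrial matrix, had ratios of -0.08 and 0.02. Ccs, the copper chaperone of Sod1, had 0.30 and -0.11, and Sod3, the extracellular enzyme, 0.53 and 0.17. Metallothionein genes Mt3 and Mt1, the most abundant of the list, had 0.26 and 0.17 in the first pair and -0.06 and 0.34 in the second. Gpx4, a glutathione peroxidase that reduces lipid peroxides, had 0.20 and 0.18, the highest pair of ratios by the rule used for naming list genes. Gss, glutathione synthetase, had the lowest, -0.33 and -0.16. Sod2, Ccs and Sod3 were named for their relation to Sod1 after their values were seen.

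Set against its own assembly, or for Sod1 against the antioxidant list, each member took a larger share of transcripts in the Dp16 sections. Atp5j UMIs equalled 6.52% of the UMIs of the 19 other ATP synthase genes in Wild-type and 6.34% in 5xFAD, against 9.90% in Dp16 and 10.2% in 5xFAD-Dp16. In the same order, the values for Atp5o were 4.08% and 4.04%, against 6.01% and 6.22%. Mrps6 equalled 3.10% and 3.15% of the other small-subunit genes, against 5.66% and 5.11%. Mrpl39 equalled 0.677% and 0.643% of the other large-subunit genes, against 0.980% and 1.04%. For these 4, and for Sod1 below, the sections with the duplication did not overlap those without. No share over all genes was counted for this order. This measure divides out section depth and any shift shared by a whole complex. Its log2 ratios in the 2 Dp16 pairs were 0.60 and 0.68 for Atp5j, 0.56 and 0.62 for Atp5o, 0.87 and 0.70 for Mrps6, and 0.53 and 0.69 for Mrpl39. Sod1 equalled 2.38% and 2.56% of the antioxidant list without the duplication, against 3.33% and 2.82% with it, with log2 ratios of 0.49 and 0.14. That list is not an assembly, and its most abundant genes weigh most in the sum. Measured against the median ratio of the other listed genes, Sod1 had 0.56 and 0.23. By region its share was higher in 12 of 12 in the first pair. In the second it was higher in 8 of 12, with a median log2 ratio of 0.08 and the lowest in VL (-0.48).

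The spots carry region labels, and 12 of 17 labels had at least 30 spots in every section. They are given as the deposited table writes them. Atp5j, Atp5o and Mrps6 were higher in 12 of 12 regions in both Dp16 pairs, a pattern shown by 0.118% of all genes (0.562% in the first pair and 1.35% in the second). Mrpl39 was higher in 11 of 12 regions in the first pair and 12 in the second, and Sod1 in 12 and 10.

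In these regions the log2 ratio of Atp5j ran from 0.57 (Cortex SSp) to 0.91 (VL) in the first pair and from 0.51 (Hypothalamus) to 0.91 (Cortex RSP, IL) in the second. Every interval lay above 0 in both pairs. Atp5o ran from 0.52 (Cortex AUC) to 0.90 (Cortex RSP, IL) and from 0.51 (VL) to 0.91 (CNU), again with every interval above 0. Mrps6 ran from 0.25 (CNU) to 1.14 (VL) and from 0.39 (Cortex CTXsp) to 1.24 (Cortex RSP, IL). Mrpl39, with few UMIs per region, ran from -0.08 (Cortex PTL) to 0.84 (Thalamus) and from 0.37 (Hippocampus) to 1.28 (Cortex RSP, IL), and its interval lay above 0 in 8 and 10 regions.

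Sod1 kept its pattern by region. In the first pair its log2 ratio ran from 0.38 (Cortex SSp) to 0.72 (FB), and 12 of 12 regions passed the size set for a call. In the second pair it ran from -0.17 (CNU) to 0.34 (Cortex AUC), and 2 of 12 did. Among the 9 regions of at least 100 spots in every section, the pairs were farthest apart in FB, with 181 CPM in Wild-type and 220 in 5xFAD, against 299 in Dp16 and 225 in 5xFAD-Dp16. In 5xFAD over Wild-type Sod1 was higher in 12 of 12 regions, as were 0.408% of all genes, with a median log2 ratio of 0.26. In 5xFAD-Dp16 over Dp16 it was lower in 11 of 12, as were 5.22% of all genes in at least that many regions, with a median of -0.14. The exception was Cortex RSP, IL (0.07). The opposite signs seen over whole sections were thus present within 11 of 12 regions. The other 4 members showed no such split, with between 5 and 10 regions higher in 5xFAD over Wild-type and between 6 and 8 in 5xFAD-Dp16 over Dp16.

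**Figure D3:**
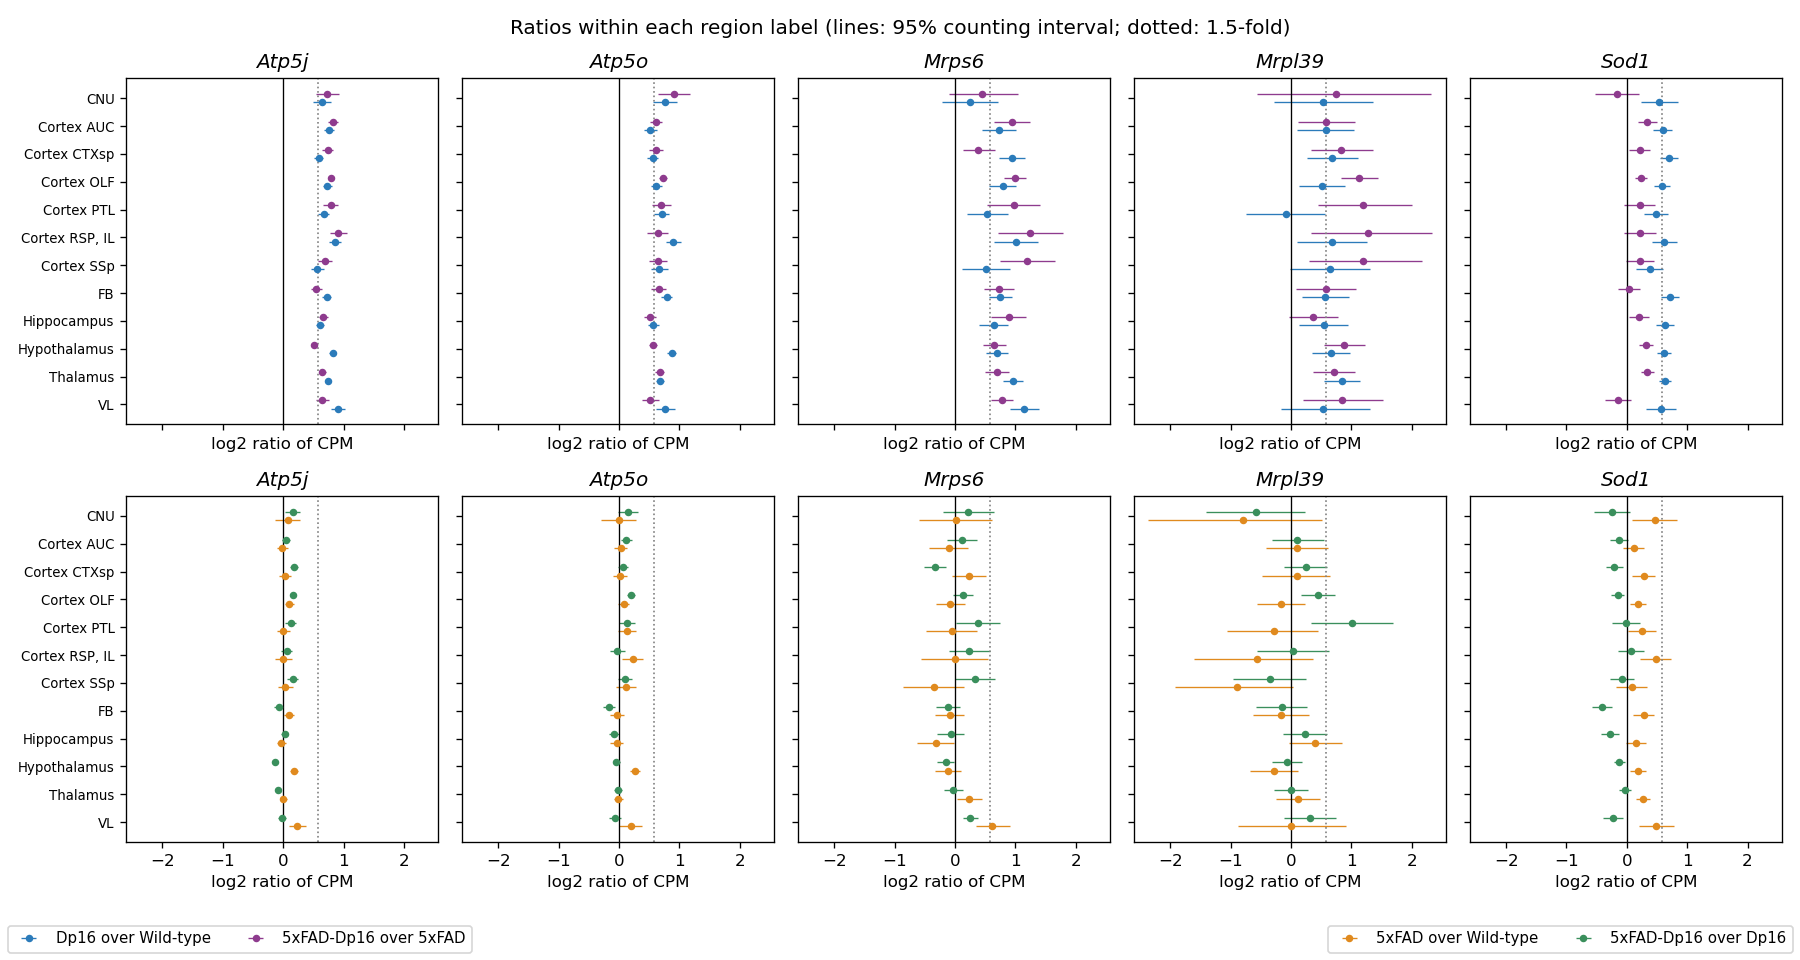
Each panel gives log2 ratios of CPM for 1 gene within 12 region labels, the Dp16 pairs above and the 5xFAD pairs below, with 95% counting intervals and a dotted line at 1.5-fold. Atp5j and Atp5o keep every duplication ratio above 0.5, while for Sod1 the 5xFAD over Wild-type points lie right of 0 in 12 regions and the 5xFAD-Dp16 over Dp16 points left of it in 11.

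Regional levels differed by gene. Mrps6 was highest in VL, at 202 CPM in Wild-type and 311 in 5xFAD, against 447 in Dp16 and 533 in 5xFAD-Dp16, above every other region in each section. The next region, FB, had 112 and 105 CPM against 187 and 174 CPM. The lowest by the mean of the sections, Hippocampus, had 73.6 and 59.1 CPM against 115 and 109 CPM. VL was led by choroid plexus markers, which summed to 148197 CPM in Wild-type and to between 229823 and 268398 CPM in the other sections. In Hypothalamus the same markers summed to between 177 and 811 CPM, but in FB to between 9310 and 35524 CPM. In Cortex CTXsp they summed to 171 CPM in Wild-type and 45445 in 5xFAD, against 49070 in Dp16 and 9737 in 5xFAD-Dp16. In CNU they summed to 2013 and 78060 CPM, against 22203 and 39718 CPM. The part of choroid plexus in the Mrps6 ratios of these labels was not tested. VL held 52 spots in Wild-type and 40 in 5xFAD, against 102 in Dp16 and 95 in 5xFAD-Dp16.

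Atp5o and Sod1 were highest by the mean of the sections in Hypothalamus (897 and 323 CPM) and lowest in FB (560 and 231 CPM). The Hypothalamus label did not hold like tissue in every section. Pituitary markers there summed to 413 CPM in Wild-type and 12.6 in 5xFAD, and 16.5 in Dp16 and 273 in 5xFAD-Dp16. The part of pituitary tissue in the members' levels and ratios was not tested. For Atp5o, Hypothalamus stood above the next region, Cortex RSP, IL, in 4 of 4 sections. For Sod1 the order of these 2 regions was split 2 to 2. Atp5j was highest in Cortex RSP, IL (1373 CPM) and lowest in FB (974 CPM), with the 3 leading regions, which also include Cortex PTL and Hypothalamus, in changing order between sections. FB was below Cortex OLF, its neighbour in the order for Atp5j, in 4 of 4 sections. Mrpl39 ran from 31.3 CPM (CNU) to 43.4 CPM (Hypothalamus), and no 2 neighbouring regions kept the same order in all sections. The standard deviation over the 4 sections, which includes the duplication, was between 8.12 and 14.6 CPM for Mrpl39 in these regions.

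**Figure D4:**
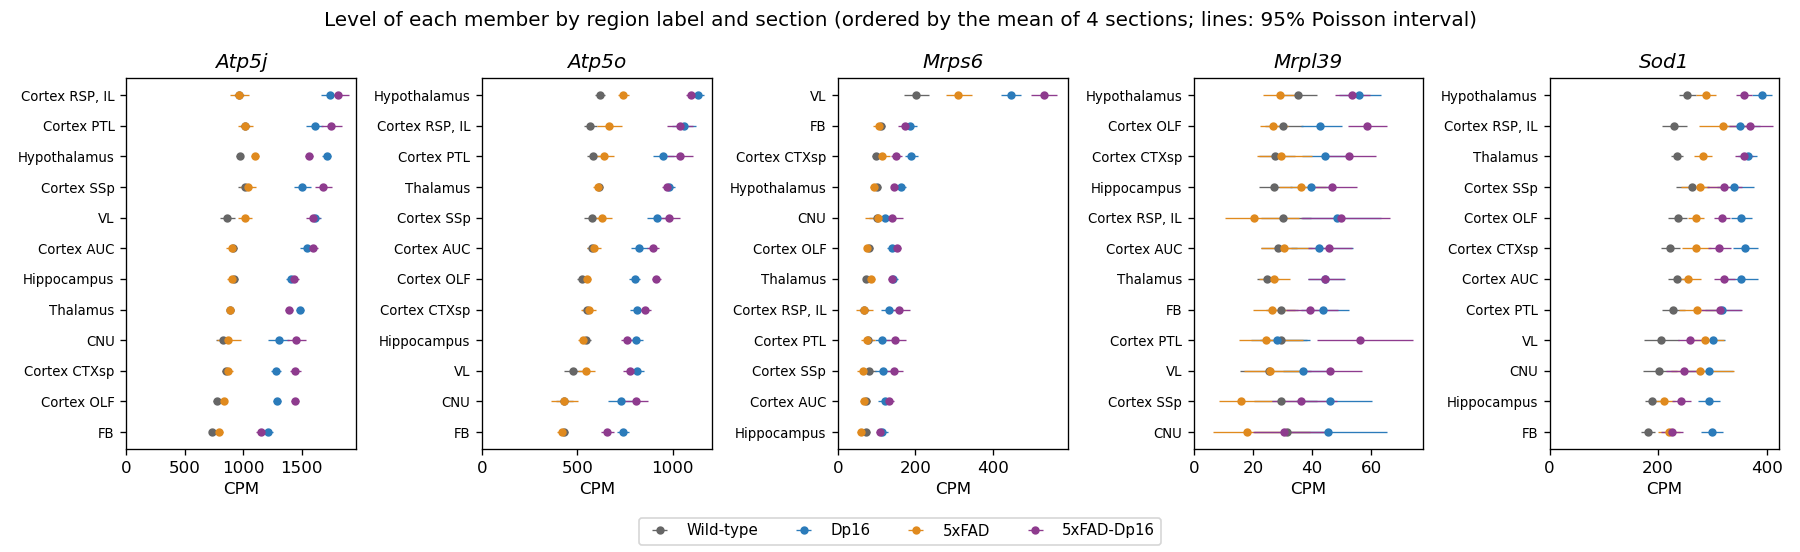
Each panel gives the level of 1 gene in CPM for 12 region labels, ordered by the mean over sections, with 1 point per section and 95% Poisson intervals. Mrps6 stands apart in VL (202 to 533 CPM), and for Atp5j and Atp5o the Dp16 and 5xFAD-Dp16 points lie right of the other 2 sections in every region.

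Likeness to other genes was measured as Pearson's r of log2(CPM + 1) over 48 points, the 12 regions in 4 sections, centred within each section, among 6476 genes of at least 20 CPM. The points share sections, depth and tissue makeup, so r is a description. The genes most like Atp5j were Cox7b (0.91), Slc25a3 (0.87), Atp5h (0.87), Naa20 (0.86) and Ndufa6 (0.86). Cox7b is a cytochrome c oxidase subunit, Slc25a3 the mitochondrial phosphate carrier, Atp5h another stalk subunit and Ndufa6 a complex I subunit. The genes most like Atp5o were Cyc1 (0.90), Ndufa12 (0.89), Atp5g3 (0.89), Cox6b1 (0.89) and Cox5a (0.87), all genes of the respiratory chain or ATP synthase. Atp5j and Atp5o had an r of 0.75 with each other, and medians of 0.62 with the other ATP synthase genes.

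Sod1 was most like Fbxo44 (0.81), Zfp612 (0.80), Chp1 (0.79), Pitpnm1 (0.78) and Cyc1 (0.78). Its r was 0.73 with Atp5o and 0.52 with Atp5j, while its median r over the antioxidant list was -0.03. Mrps6 was most like Bsg (0.94), Arl6ip1 (0.92), Atp6v0e (0.92), Atox1 (0.91) and Cab39l (0.91). Its median r was -0.39 with the other small-subunit genes and -0.80 with the genes of mitochondrial DNA. Without VL, over 44 points, the r of Mrps6 with the 5 genes most like it was between 0.51 and 0.74. The medians include the VL points and were not computed without VL. Mitochondrial DNA transcripts in VL summed to 51445 to 85292 CPM, and over whole sections to 139701 to 150448 CPM. Mrpl39 had no close match, the highest being Psmb6 (0.58), a proteasome subunit. Mrps6 and Mrpl39 had an r of -0.01 with each other. The regional levels of Mrpl39 rest on few UMIs, down to 6 in CNU of 5xFAD. The part of counting error in its low r values was not tested.

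Plaque marks in the deposited spot table divide the 5xFAD and 5xFAD-Dp16 sections into 324 and 396 plaque spots, 628 and 759 neighbour spots and 1395 and 1786 unmarked spots. Wild-type and Dp16 had 0 plaque spots. Plaque and neighbour spots were compared with unmarked spots of the same region, in regions with at least 10 of each, so that 310 and 380 plaque spots entered. No member was called in plaque spots of either section. Over all genes 7.32% were higher and 12.7% lower in 5xFAD, and 8.96% higher and 11.3% lower in 5xFAD-Dp16. Microglia markers, beside this, were higher in plaque spots, at 1653 against 674 CPM in 5xFAD and 1552 against 657 CPM in 5xFAD-Dp16, with 7 of 8 called higher in each.

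Sod1 was lower in plaque spots in both sections, within the fold set for a call. In 5xFAD it stood at 249 CPM against 275 in matched unmarked spots, a log2 ratio of -0.14 (-0.26 to -0.03). In 5xFAD-Dp16 it stood at 306 against 334 CPM, a log2 ratio of -0.13 (-0.22 to -0.04). It was lower in 9 of 10 regions in 5xFAD and 7 of 11 in 5xFAD-Dp16, with the interval below 0 in 1 region of each. The share of all genes lower in as many regions was not counted. The genes of mitochondrial DNA had medians of -0.07 and -0.21 in plaque spots, and the nuclear respiratory chain genes 0.03 and 0.07. The part of microglial RNA in the Sod1 values was not tested.

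Atp5j in plaque spots had log2 ratios of 0.01 (-0.05 to 0.07) and 0.08 (0.04 to 0.13), and Atp5o -0.01 (-0.08 to 0.06) and 0.01 (-0.05 to 0.06). Mrps6 had 0.04 (-0.15 to 0.22) and 0.12 (-0.01 to 0.26), and -0.18 and -0.26 when spots were not matched by region. Mrpl39, on 85 and 212 plaque UMIs, had -0.23 (-0.59 to 0.12) and 0.02 (-0.21 to 0.25), so that a lower level of the size set for a call was within its interval in 5xFAD. Over the alternatives run, its value was between -0.36 and -0.21 in 5xFAD and between -0.19 and 0.02 in 5xFAD-Dp16. In neighbour spots no member was called, where 4.72% of genes were higher and 6.73% lower in 5xFAD and 5.10% higher and 5.95% lower in 5xFAD-Dp16. The largest value there was Mrps6 in 5xFAD, -0.22 (-0.38 to -0.06), against 0.08 in 5xFAD-Dp16 (-0.16 not matched by region). Sod1 in neighbour spots was -0.01 in 5xFAD and -0.10 (-0.17 to -0.02) in 5xFAD-Dp16.

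**Figure D5:**
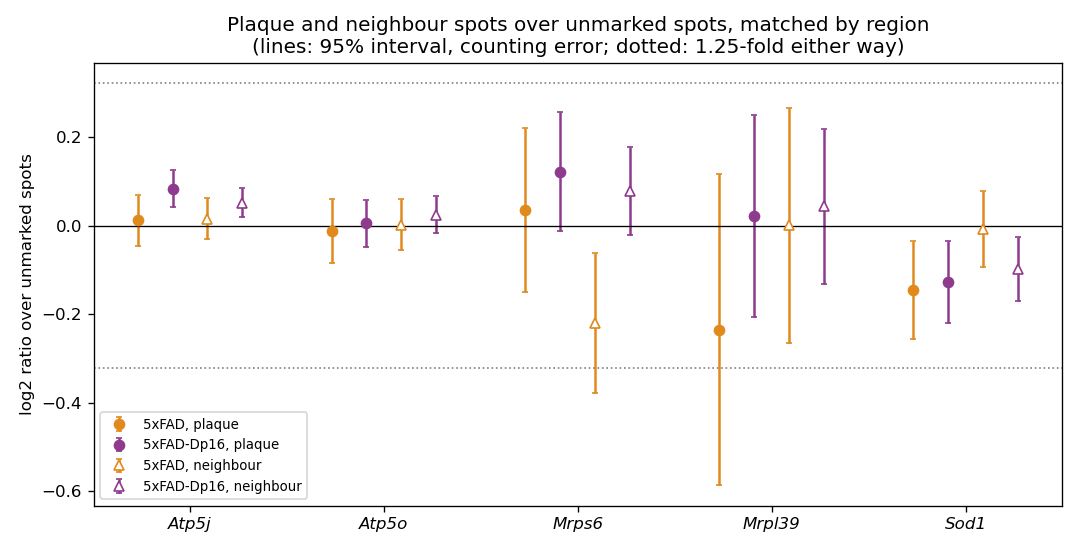
Points give log2 ratios of plaque spots (filled circles) and neighbour spots (open triangles) over unmarked spots of the same regions in the 5xFAD and 5xFAD-Dp16 sections, with 95% intervals for counting error and dotted lines at the size set for a call. No point passes a dotted line, and both plaque points of Sod1 lie below 0 (-0.14 and -0.13).

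The duplication ratio was also read within each kind of spot, 5xFAD-Dp16 over 5xFAD. In plaque, neighbour and unmarked spots it was 0.75, 0.73 and 0.69 for Atp5j and 0.64, 0.64 and 0.66 for Atp5o. It was 0.71, 1.00 and 0.80 for Mrps6 and 0.99, 0.77 and 0.79 for Mrpl39. These 4 were called higher in each kind of spot, where 9.41%, 7.02% and 3.17% of all genes were. Sod1 had 0.31 (0.19 to 0.43), 0.19 (0.10 to 0.27) and 0.27 (0.22 to 0.33) and was not called in any. The low Sod1 ratio of this pair was present in unmarked spots as well as in plaque spots.

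The genes on either side of the members give the local setting. Next to Atp5j, Jam2 had log2 ratios of 0.22 and 0.78 in the Dp16 pairs, Gabpa 0.35 and 0.18, and App, the amyloid precursor gene that the 5xFAD transgene also carries in human form, 0.18 and 0.31. Next to Sod1, Tiam1 had 0.28 and 0.23, Scaf4 0.05 and 0.23, Hunk 0.24 and 0.21, and Grik1 0.74 and 0.75. Sod1 was above Tiam1, Scaf4 and Hunk in both pairs, by a narrow margin in the second. Around Atp5o, Itsn1 had 0.31 and 0.42 and Cryzl1 0.56 and 0.58. Beyond Mrps6, Smim11 had 0.55 and 0.88, and Kcne2, a potassium channel subunit, 2.79 and 0.25. Kcne2 is also a choroid plexus marker, left out of the marker sums as a segment gene. The 7 other choroid plexus markers had median log2 ratios of 1.90 and -0.62 in these pairs. The part of choroid plexus in the Kcne2 ratios was not tested. The neighbours of Mrpl39 on the far side, Ncam2 (0.34 and 0.29) and D16Ertd472e (0.34 and 0.58), lay 3093991 and 6141593 bases away. No neighbour named here was lower in a Dp16 section than in its control.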

How the data were processed

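The authors deposited 1 matrix of raw UMI counts per gene and spot for all 4 sections, per the file headers, with a spot table of section, region, cluster and plaque marks. Space Ranger, Seurat and the build mm10 are named in the submitters' processing notes, with versions, counting settings and the way regions and plaques were marked not given in the sources used here. Counts were summed per section, region and plaque status with no spot left out and divided by the total UMIs (CPM). All 10549 spots entered. Levels have exact Poisson intervals and ratios exact conditional binomial (Clopper-Pearson) intervals at 95%. UMIs count molecules, and the intervals cover counting error only. Plaque ratios were weighted over regions, and their intervals, like those of differences between ratios, come from the counting variance with a normal approximation. TMM factors came from edgeR 4.0.16 and served as a scaling alternative only, since 1 section per genotype allows no count test. Scripts ran in Python 3.11.15 with scipy 1.17.1 and were tested on simulated data. Positions and sequences come from RefSeq GRCm38.p6, where all 5 members matched by symbol.

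The members and gene lists were chosen with earlier results of these data known. Named besides the members were the 2 most abundant, the highest and the lowest gene by ratio of a list, the 2 nearest measured genes on each side of a member, and the 5 genes most like it over regions. The text gives a selection of these. Sections were grouped by their genotype labels. The alternatives were other scalings, spot filters, region weighting, gene minimums, folds of 1.1 and 1.4, spot minimums and unmatched plaque sums. The region labels' 5 groups with under 30 spots in a section were left out of regional comparisons.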

Additional observations from a re-analysis of the deposited data

Results flagged for a closer look

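Sod1 had a log2 ratio of 0.229136 in 5xFAD against Wild-type but of -0.135652 in 5xFAD-Dp16 against Dp16. It is listed because the same contrast, with the transgenes against without, went in opposite directions without and with the duplication. With 1 section in each arm the difference was not tested. Counting intervals (0.18 to 0.28 and -0.17 to -0.10) do not reach 0, and over the alternatives run the values stayed between 0.22 and 0.28 and between -0.15 and -0.11. No outlier could be sought among single sections.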

How the results depend on the processing

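The count of members called higher in the Dp16 pairs stayed within 1.5 times its reported value under every alternative run, and no duplication ratio of a member changed sign. With TMM factors, which moved the all-gene medians to -0.05 and -0.01 in the Dp16 pairs, the members' median log2 ratio was 0.772139 (Dp16 over Wild-type), 0.770685 (5xFAD-Dp16 over 5xFAD) and 0.0546851 (5xFAD-Dp16 over Dp16), and Sod1 reached the call in the second pair. Without the region labelled Hypothalamus these medians were 0.643415, 0.738252 and 0.0473539, and region-standardised the second was 0.676542. At 1.1-fold 1 member, Sod1, was higher in 5xFAD over Wild-type, and 1, Mrpl39, in 5xFAD-Dp16 over Dp16. With at least 30 spots of each kind 1 member, Mrpl39, was lower in plaque spots of 5xFAD, and with unmatched sums 1, Mrps6, in its neighbour spots. Mrps6 in 5xFAD-Dp16 over Dp16 had the other sign region-standardised (0.0127842), as a mean over spots (0.0640645) and without clusters 12 and 13 (0.0306863), and the share of Atp5j in 5xFAD over Wild-type did so against the median of the other genes (0.00429477). The difference between the Dp16 ratios of Mrps6 turned as a mean over spots (0.126603), without clusters 12 and 13 (0.0999411) and without VL (0.0325439). Its 5xFAD over Wild-type ratio turned as a mean over spots (-0.06), without these clusters (-0.07) and without VL (-0.04). With unmatched sums its ratio turned in plaque spots of both sections (-0.18 and -0.26) and in neighbour spots of 5xFAD-Dp16 (-0.16). The causes were not tested. Mrps6 in Dp16 over Wild-type was between 0.77 and 1.07. Among genes of at least 1 CPM the share called higher was 9.99% in Dp16 over Wild-type (5.15% as reported), 5.67% in 5xFAD-Dp16 over 5xFAD (2.40%), 9.42% in 5xFAD over Wild-type (4.42%) and 6.93% in 5xFAD-Dp16 over Dp16 (3.25%), where 8.65% were lower (5.19%). At 20 CPM these were 3.27% in the first, 2.72% in the third and 2.87% lower in the last. Leaving out VL, and every alternative for the differences between Dp16 ratios, was chosen after seeing the data. Over single genes, shares of genes and correlations, 55 values moved, 7 reversed and 280 stayed. No paired analysis was possible because each genotype has 1 section. Depth limits Mrpl39 most, with 727 to 1790 UMIs per section.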
